A study of Mus musculus with 7 samples.

Results

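The small leucine-rich proteoglycans measured here were 10 genes, Dcn, Bgn, Aspn, Fmod, Lum, Prelp, Kera, Omd, Ogn and Podn, chosen because the gene symbol in the count files equalled one of these names. All 10 were found among 27179 genes, and all 10 were among the 15098 genes that were tested. The question was whether deletion of Efnb2, which encodes the membrane-bound signalling ligand ephrin B2, in late osteoblasts and osteocytes was accompanied by a change in these matrix genes. RNA was sequenced from the femoral cortical bone of 12-week-old female C57BL/6 mice, with the bone ends removed and the marrow flushed out. Dmp1Cre.Efnb2f/f (n = 3) mice carried a floxed Efnb2 gene and Cre recombinase driven by the Dmp1 promoter, which is active in late osteoblasts and osteocytes, while Dmp1Cre controls (n = 4) carried the same Cre and no floxed allele and are called cousin-bred in the methods. The whole flushed bone was extracted, so cells in which the Dmp1 promoter is silent contributed to every library, and a lower number of cells of a type cannot be told apart from less RNA per cell. Libraries 1 and 2 labelled Dmp1Cre.Efnb2f/f shared a parent cross, as did controls 1 and 2, while library 3 labelled Dmp1Cre.Efnb2f/f shared a cross with control 3, and control 4 came from a cross of its own. Replicates were separate mice, so the p-values measure the spread between these mice.

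Total counts were 18119947 to 19119250 in the Dmp1Cre.Efnb2f/f-labelled libraries and 17245556 to 22075778 in the controls. Efnb2, the targeted gene, had 17.9, 13.1 and 11.8 CPM (counts scaled to library sizes corrected by TMM, edgeR's normalization) in the 3 Dmp1Cre.Efnb2f/f-labelled libraries and 8.49, 7.93, 6.44 and 6.36 CPM in controls 1 to 4. Its level was thus higher in every library labelled Dmp1Cre.Efnb2f/f, against the direction of the labels, and since the counts are summed over the exons of a gene they do not separate the deleted part from the rest. The genotype is therefore given here as labelled. In separate mice, the study reported by PCR of the targeted region that Efnb2 was lost in sorted osteocytes and kept in other cells. Controls 1 and 4 stood apart from the other 5 libraries on the first principal component, which held 53.9% of the variance, with scores of 43.9 and 68.8 against -41.4 to -1.76. Markers of the labelled tissue were present in every library, with the 7 osteoblast markers summing to between 14182 and 71433 CPM and the 6 osteocyte markers to between 156 and 621 CPM. Most of the osteoblast sum was Col1a1 and Col1a2, which other connective tissue cells can also contribute, though all 7 markers had counts in every library.

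Small leucine-rich proteoglycans are short secreted proteins of the extracellular matrix, built around leucine-rich repeats that bind collagen fibrils. Most carry chains of chondroitin, dermatan or keratan sulfate, or sulfated tyrosines, and together they set the diameter and spacing of the fibrils. In bone, decorin and biglycan are the most studied of them, and osteomodulin (also called osteoadherin) is known from mineralised matrix, whereas fibromodulin, lumican and PRELP are also abundant in tendon, cartilage and connective tissue sheaths. By sequence the family is divided into classes, of which class I (Dcn, Bgn, Aspn), class II (Fmod, Lum, Prelp, Kera, Omd), class III (Ogn) and the non-canonical class V (Podn) are covered here.

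The genes lie largely in clusters on mm10. Aspn (chr13:49544443-49567565), Omd (chr13:49582462-49592612) and Ogn (chr13:49608015-49624501) followed each other on the plus strand behind the related gene Ecm2, over 119.7 kb. Dcn (chr10:97479500-97518163), Lum (chr10:97565501-97572703) and Kera (chr10:97606962-97613688) formed another cluster with Epyc over 202.4 kb. Prelp (chr1:133910304-133930102) and Fmod (chr1:134037254-134048280) lay with Optc over 151.1 kb. Bgn (chrX:73483601-73495936) and Podn (chr4:108014793-108031954) had no other family member beside them. The chromosome 13 genes all sit within Cenpp, which is transcribed from the opposite strand, and in the GENCODE annotation Aspn shared 7 exon bases with it while Omd and Ogn shared 0. Prelp shared 350 exon bases, 9.68% of its exon length, with the antisense gene Gm15851, and as the strand setting of the counting is not given in the sources used here, reads of Prelp and of this gene cannot be told apart over that stretch.

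Promoters of the chromosome 13 genes are shown because these genes were lowest together in control 4, and that of Bgn because it followed type I collagen most closely. RefSeq promoters of GRCm38.p6, the assembly that mm10 corresponds to, spanning 250 bases before to 50 bases after the transcription start, were available for 8 of the 10 genes. They are written 5′ to 3′ on the plus strand, Aspn from chr13:49544193-49544492, Omd from chr13:49582212-49582511, Ogn from chr13:49607765-49608064 and Bgn from chrX:73483351-73483650. Capitals mark matches on either strand, with overlapping matches run together. The motifs searched were a TATA box read as TATAAA, the box named CCAAT after its letters, a core of RUNX factors read as TGTGGT, an AP-1 motif read as TGANTCA, a GC box of Sp1 read as GGGCGG, and a core of TEAD factors read as GGAATG.
Aspn: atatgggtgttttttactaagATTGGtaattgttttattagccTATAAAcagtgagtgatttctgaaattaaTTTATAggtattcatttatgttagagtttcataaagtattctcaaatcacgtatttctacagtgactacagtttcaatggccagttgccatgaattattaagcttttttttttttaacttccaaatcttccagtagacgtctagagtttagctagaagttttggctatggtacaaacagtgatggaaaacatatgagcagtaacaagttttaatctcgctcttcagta
Omd: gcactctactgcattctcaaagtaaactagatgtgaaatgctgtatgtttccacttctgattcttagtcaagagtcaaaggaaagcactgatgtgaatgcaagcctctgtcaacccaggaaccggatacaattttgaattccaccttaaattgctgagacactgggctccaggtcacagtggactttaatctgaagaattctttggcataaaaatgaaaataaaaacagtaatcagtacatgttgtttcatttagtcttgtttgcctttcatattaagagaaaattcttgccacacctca
Ogn: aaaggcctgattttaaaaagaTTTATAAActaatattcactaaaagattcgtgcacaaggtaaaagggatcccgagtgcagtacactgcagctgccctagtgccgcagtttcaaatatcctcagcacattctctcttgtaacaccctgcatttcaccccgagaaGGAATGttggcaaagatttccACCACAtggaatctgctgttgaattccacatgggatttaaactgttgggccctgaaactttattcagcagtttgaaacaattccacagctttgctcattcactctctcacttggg
Bgn: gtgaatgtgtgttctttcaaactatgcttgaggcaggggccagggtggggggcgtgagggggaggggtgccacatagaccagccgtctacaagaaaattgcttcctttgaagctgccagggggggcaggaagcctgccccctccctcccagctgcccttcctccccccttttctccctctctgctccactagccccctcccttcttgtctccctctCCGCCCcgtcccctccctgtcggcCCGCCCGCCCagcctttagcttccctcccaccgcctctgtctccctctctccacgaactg

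The 4 promoters differed in base composition. GC content was 31% for Aspn, 37.7% for Omd and 42.3% for Ogn, below the median of 52.7% over all 32851 promoters, and 63.7% for Bgn. TATAAA was matched in Aspn and Ogn, and in 13.6% of all promoters. CCAAT was matched in Aspn (37.4% of all promoters), the RUNX core TGTGGT and the TEAD core GGAATG in Ogn (16.8% and 14.7%), and GGGCGG in Bgn (35.7%). None of the 6 motifs was matched in Omd, and TGANTCA, found in 7.81% of all promoters, was matched in 0 of the 9 promoter entries of the family. These matches describe the letters of the windows only.

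Per length, the genes spanned a wide range of levels in cortical bone. On the RPKM scale (CPM divided by the exon length in kilobases), Dcn averaged 159.8 ± 79.3 RPKM (SD, n = 7) and ranked 285 of the 15098 genes tested, Bgn averaged 90.6 ± 53.1 RPKM at rank 576 and Lum 62.5 ± 33.9 RPKM at rank 968. A middle group followed, with Fmod at 32.6 ± 34.9 RPKM, Aspn at 23.8 ± 8.50, Ogn at 19.6 ± 6.51, Prelp at 15.4 ± 9.44 and Omd at 11.3 ± 4.20 RPKM. Podn (2.22 ± 0.936 RPKM) and Kera (2.13 ± 1.90 RPKM) were lowest. In single libraries, Lum was above Fmod in 7 of 7 and Omd above Podn in 7 of 7, so these steps held in every mouse. Dcn exceeded Bgn in 6 of 7 libraries and Bgn exceeded Lum in 6 of 7. The order within the middle group varied from mouse to mouse, as Fmod was above Aspn in 3 of 7, Aspn above Ogn in 4 of 7, Ogn above Prelp in 5 of 7 and Prelp above Omd in 5 of 7, and Podn was above Kera in 5 of 7. Neighbours within the middle group therefore did not differ beyond their spread, nor did Podn and Kera. The plot of levels by library shows this order on a log scale.

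**Figure D1:**
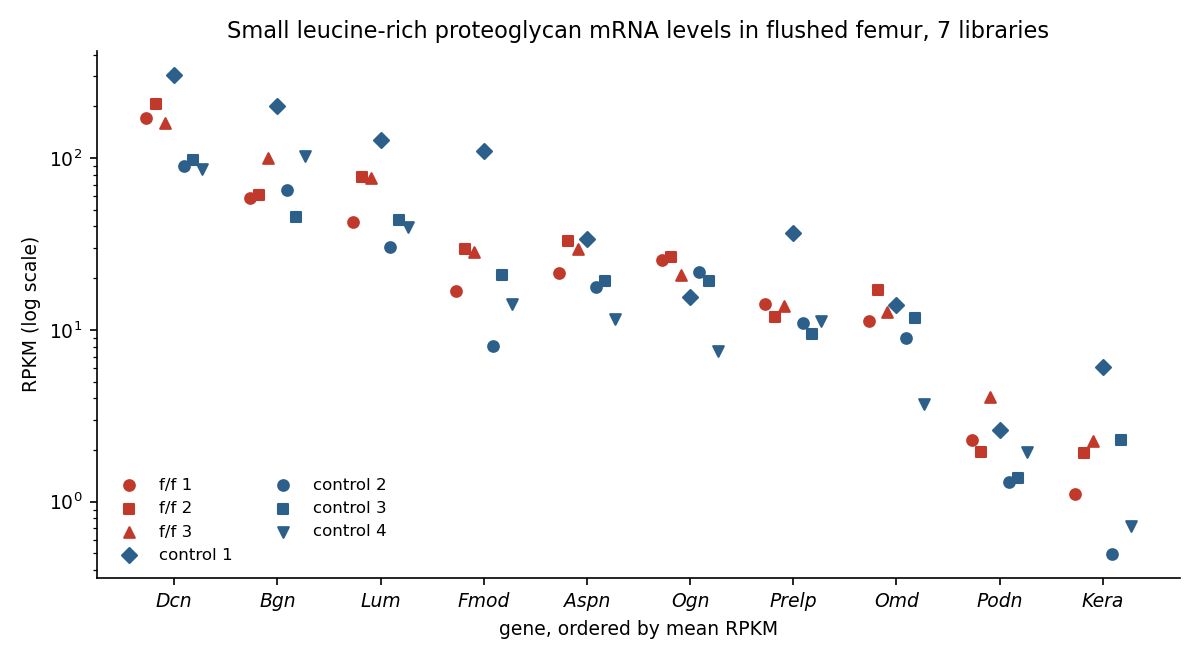
Level of each gene in RPKM (log axis) in the 3 Dmp1Cre.Efnb2f/f-labelled libraries and the 4 Dmp1Cre controls, 1 point for each library, with genes in the order of their mean. Dcn, Bgn and Lum lie above the middle group, and control 1 is the highest library for 7 of the 10 genes.

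Dcn encodes decorin, a class I proteoglycan that binds type I collagen and TGF-β. It had 356, 433 and 332 CPM in the 3 Dmp1Cre.Efnb2f/f-labelled libraries and 637, 188, 204 and 180.0 CPM in controls 1 to 4. All 3 libraries labelled Dmp1Cre.Efnb2f/f lay above controls 2 to 4 and below control 1, so the groups overlapped through this single control. This gave a log2 fold change of 0.31 ± 0.46 (SE), with a 95% interval of -0.73 to 1.34, which did not pass the test (edgeR quasi-likelihood test, Benjamini-Hochberg adjusted p = 0.767). Without control 1 it was 0.97 (edgeR unadjusted p = 0.00114, adjusted p = 0.369), and without control 4 it was 0.12.

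Bgn encodes biglycan, the class I relative of decorin. Its level was 140.1, 146 and 240 CPM in the Dmp1Cre.Efnb2f/f-labelled libraries and 479, 155, 109 and 246 CPM in controls 1 to 4. The highest library labelled Dmp1Cre.Efnb2f/f was that of replicate 3, which was still below controls 1 and 4, and the lowest library of all was control 3. The log2 fold change of -0.50 ± 0.48 (SE; 95% interval -1.58 to 0.59) had an adjusted p of 0.654 by edgeR and became 0.04 without control 1.

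Aspn encodes asporin, a class I protein without attached chains that competes with decorin for collagen and inhibits TGF-β signalling. It was measured at 50.4, 77.98 and 69.6 CPM in the Dmp1Cre.Efnb2f/f-labelled libraries and at 79.5, 41.9, 45.2 and 27.1 CPM in controls 1 to 4. As for Dcn, all libraries labelled Dmp1Cre.Efnb2f/f exceeded controls 2 to 4, and control 1 was the highest of the 7. The log2 fold change was 0.45 ± 0.34 (SE; 95% interval -0.32 to 1.21; edgeR adjusted p = 0.583), 0.79 without control 1 (edgeR unadjusted p = 0.0153) and 0.25 without control 4.

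Among the class II genes, Fmod, which encodes the keratan sulfate proteoglycan fibromodulin, varied most. It stood at 48.1, 84.9 and 81.6 CPM in the Dmp1Cre.Efnb2f/f-labelled libraries and at 314, 23.1, 59.9 and 40.4 CPM in controls 1 to 4, a 13.6-fold range. Control 1 held 7.63 times the mean of the other controls. Its log2 fold change was -0.61 ± 0.80 (SE; 95% interval -2.44 to 1.22; edgeR adjusted p = 0.735), and its sign turned without control 1 (0.80). Lum, which encodes lumican and organises collagen fibrils of the cornea, skin and tendon, had 88.2, 161 and 159 CPM in the Dmp1Cre.Efnb2f/f-labelled libraries and 263, 63.4, 90.0 and 82.1 CPM in controls 1 to 4. Replicates 2 and 3 labelled Dmp1Cre.Efnb2f/f were above controls 2 to 4, whereas replicate 1 fell between controls 4 and 3. Lum had a log2 fold change of 0.13 ± 0.49 (SE; 95% interval -0.98 to 1.23; edgeR adjusted p = 0.911), and 0.79 without control 1 (edgeR unadjusted p = 0.0200).

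Prelp encodes a protein with a basic, heparin-binding end that links matrix to basement membranes. It had 50.9, 42.6 and 49.9 CPM in the Dmp1Cre.Efnb2f/f-labelled libraries and 132, 39.6, 34.3 and 40.4 CPM in controls 1 to 4. These 3 libraries and controls 2 to 4 each kept to a narrow range that did not overlap, the former higher, while control 1 was 3.46 times the mean of the other controls. The log2 fold change with all libraries was -0.36 ± 0.46 (SE; 95% interval -1.42 to 0.69; edgeR adjusted p = 0.728), and 0.33 without control 1. Kera, which encodes keratocan of the corneal stroma, was weakly expressed, at 2.17, 3.73 and 4.43 CPM in the Dmp1Cre.Efnb2f/f-labelled libraries and 11.9, 0.970, 4.45 and 1.41 CPM in controls 1 to 4, from 17 to 230 counts. Its highest and lowest libraries were both controls. Kera had a log2 fold change of -0.45 ± 0.77 (SE; edgeR adjusted p = 0.796).

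Omd encodes osteomodulin, an acidic keratan sulfate proteoglycan that binds hydroxyapatite. It had 19.7, 29.9 and 22.1 CPM in the Dmp1Cre.Efnb2f/f-labelled libraries and 24.4, 15.7, 20.6 and 6.47 CPM in controls 1 to 4. Control 1 did not stand out here, and control 4 was the lowest of the 7 libraries. For Omd the log2 fold change was 0.51 ± 0.39 (SE; 95% interval -0.38 to 1.40; edgeR adjusted p = 0.587), and 0.24 without control 4.

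Ogn encodes osteoglycin (mimecan), the class III member. Its level was 64.8, 67.9 and 53.3 CPM in the Dmp1Cre.Efnb2f/f-labelled libraries and 39.6, 55.3, 48.9 and 19.1 CPM in controls 1 to 4. The groups overlapped only between replicate 3 labelled Dmp1Cre.Efnb2f/f and control 2, and control 4 was again far below the rest. The log2 fold change of 0.61 ± 0.32 (SE; 95% interval -0.12 to 1.34) had the lowest unadjusted p of the 10 genes (0.0926, edgeR adjusted p = 0.517), and a two-sided exact permutation test gave p = 0.114, where 0.0286 is the smallest possible with 3 against 4. Without control 4 the log2 fold change was 0.37, and without control 2 it was 0.79 (edgeR unadjusted p = 0.0425). Podn encodes podocan, known from smooth muscle and kidney. It had 7.28, 6.20 and 12.9 CPM in the Dmp1Cre.Efnb2f/f-labelled libraries and 8.23, 4.11, 4.33 and 6.19 CPM in controls 1 to 4. Replicate 3 labelled Dmp1Cre.Efnb2f/f was the highest of the 7 libraries, and control 1 lay between it and replicate 1 of that label. For Podn the log2 fold change was 0.62 ± 0.34 (SE; 95% interval -0.15 to 1.39; edgeR adjusted p = 0.520), 0.85 without control 1 (edgeR unadjusted p = 0.0344) and 0.24 without replicate 3 labelled Dmp1Cre.Efnb2f/f (edgeR unadjusted p = 0.505).

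Over the family, 0 of 10 genes passed the test between the genotypes as labelled, and 0 of 10 had an unadjusted p under 0.05. By the same edgeR test 0% of the 15098 genes passed the adjusted threshold and 9.66% had an unadjusted p under 0.05. The log2 fold changes were positive for Dcn, Aspn, Lum, Omd, Ogn and Podn and negative for Bgn, Fmod, Prelp and Kera, with a median of 0.22 against 0.01 over all genes tested. In no gene of the family did the groups separate, while 5.05% of all genes tested had every library labelled Dmp1Cre.Efnb2f/f above every control and 6.3% had every one below. For all 10 genes the interval included a doubling, a halving or both, so that the mice measured do not bound the changes more tightly than this. Between the pair from a shared cross, replicate 3 labelled Dmp1Cre.Efnb2f/f and control 3, the log2 difference was 1.57 for Podn, 1.14 for Bgn, 0.83 for Lum and 0.70 for Dcn, between 0.11 and 0.62 for Aspn, Prelp, Fmod, Ogn and Omd, and -0.01 for Kera. This pair has no replicate.

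The fold changes and the overlap of the groups depended on control 1, though 0 of 10 genes passed the edgeR threshold with or without it. Control 1 was the highest control for 9 of 10 genes, so leaving it out had to raise their fold changes. The shares over all genes do not allow for this, and the counts are a description. Without control 1, every library labelled Dmp1Cre.Efnb2f/f exceeded the remaining controls for Dcn, Aspn, Prelp and Podn, which is 4 of 10 genes against 10.5% of all genes tested. For Podn the margin was from 6.20 CPM in replicate 2 labelled Dmp1Cre.Efnb2f/f to 6.19 CPM in control 4, and for Prelp from 42.6 to 40.4 CPM. An unadjusted p under 0.05 was then reached, on the higher side, by Dcn, Lum, Aspn and Podn, 4 of 10 against 7.27% of all genes. The adjusted threshold was passed by 0 of 10, and by 0% of all genes. Without controls 1 and 4, Dcn, Lum, Aspn, Podn and Prelp reached this unadjusted p, 5 of 10 against 10.2% of all genes. In the limma pipeline of the study, which weights libraries by their quality, Dcn (log2 fold change 1.15, adjusted p = 0.0111), Lum (1.03, adjusted p = 0.0278) and Aspn (0.73, adjusted p = 0.0244) passed without a term for the day of collection, 3 of 10 against 7.49% of all genes called higher. There 7 of 10 had an unadjusted p under 0.05 on the higher side, against 15.1% of all genes. Without these weights 0 of 10 passed in limma, where 0% of all genes did. Over all alternatives the adjusted p ranged from 0.00308 to 1.00 for Dcn, from 0.0102 to 1.00 for Podn, from 0.0244 to 1.00 for Aspn, from 0.0278 to 1.00 for Lum, from 0.0316 to 1.00 for Omd and from 0.0420 to 1.00 for Ogn, while the other 4 genes passed in none. The study also fitted a day of collection that is not in the labels, and over the 12 possible days of 1 library from each genotype, 0 to 4 of the 10 genes passed in limma, all of them higher. Dcn, Lum, Aspn and Omd passed with replicate 1 and control 4 as the day (4.68% of all genes called higher), Dcn, Ogn and Podn with replicate 3 and control 4 (14.7%), and Dcn and Podn with replicate 3 and control 1 (6%). Dcn alone passed with replicate 1 and control 2 (9.27%) and with replicate 2 and control 4 (10.7%). With the other 7 days 0 of 10 passed, where 0% to 0.139% of all genes were called higher. The comparison plot sets the values with and without control 1 side by side.

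**Figure D2:**
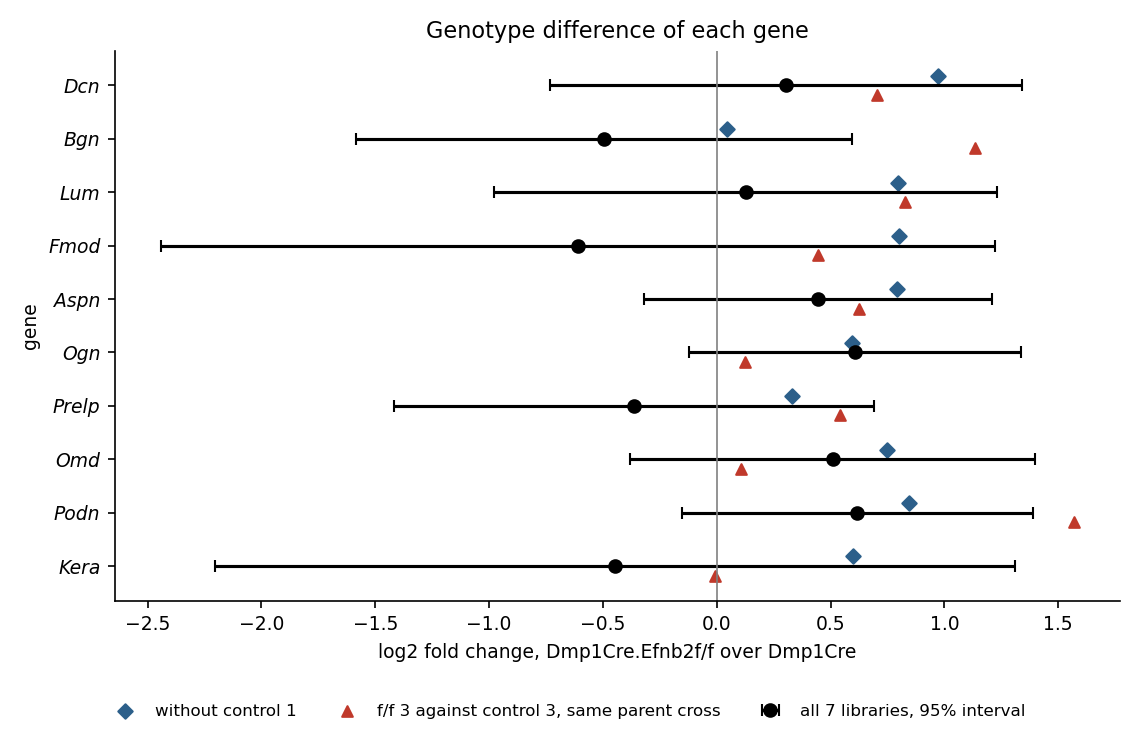
Log2 fold change of each gene, Dmp1Cre.Efnb2f/f as labelled over Dmp1Cre, with all 7 libraries (circles, bars for the 95% interval of the edgeR fit), without control 1 (diamonds) and between the 2 libraries of a shared cross (triangles, no replicate). All 10 intervals include 0, and without control 1 all 10 values are above 0, from 0.04 for Bgn to 0.97 for Dcn.

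Libraries differed in which genes of the family were high. Control 1 was the highest of the 7 libraries for 7 genes, Dcn, Bgn, Fmod, Lum, Aspn, Prelp and Kera, and the highest control for 9 of 10, with Ogn as the exception. Its excess over the mean of the other controls was graded, from 7.63-fold for Fmod and 5.23-fold for Kera through 3.46-fold for Prelp, 3.35-fold for Lum, 3.34-fold for Dcn, 2.82-fold for Bgn and 2.09-fold for Aspn to 1.72-fold for Omd, 1.69-fold for Podn and 0.964-fold for Ogn. Control 4 was the lowest library for Dcn, Omd, Ogn and Aspn. Ecm2, the neighbour of the latter 3 genes on chromosome 13, was likewise lowest there, at 6.90 CPM against 22.4 to 30.7 CPM in the other 6 libraries. Control 2 was lowest for Fmod, Lum, Kera and Podn and control 3 for Bgn and Prelp, so no library labelled Dmp1Cre.Efnb2f/f was the lowest for any of the 10 genes. Replicate 2 of that label was highest for Omd and Ogn and replicate 3 for Podn.

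**Figure D3:**
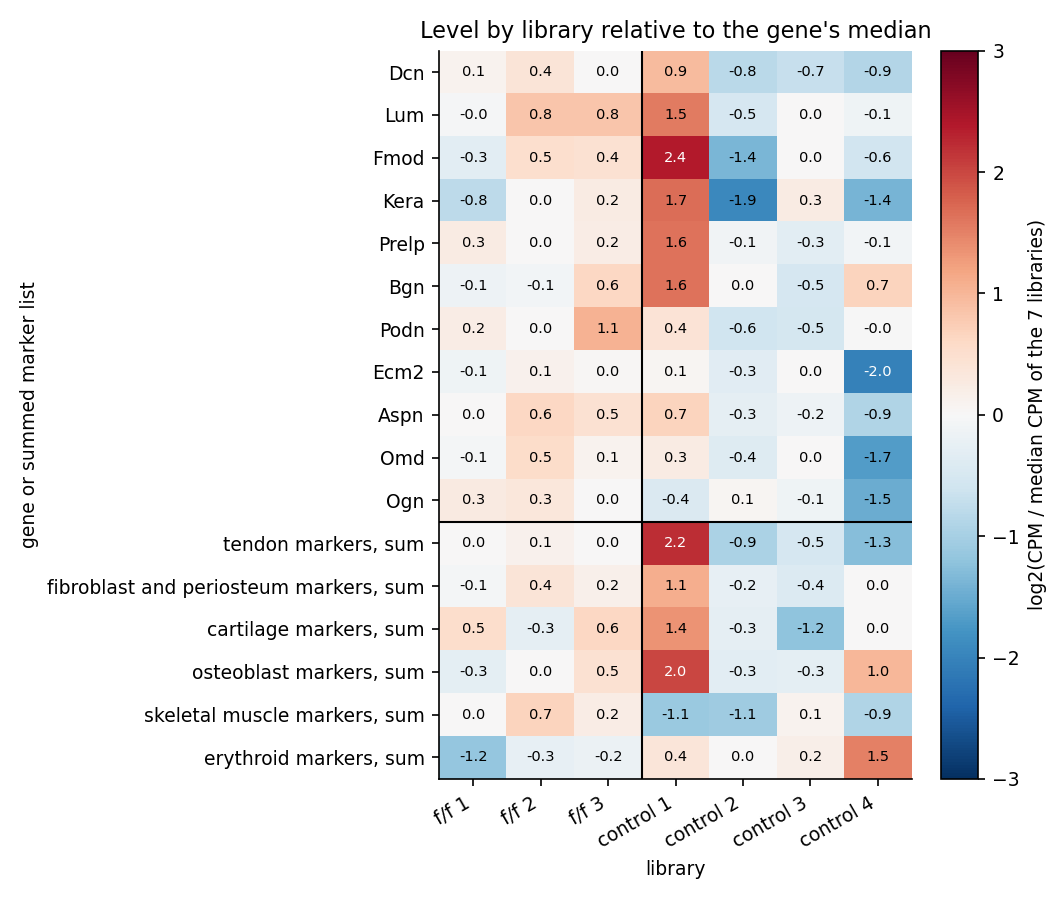
Log2 of the CPM of each gene in each library over the gene's median CPM in the 7 libraries. Ecm2 is included, and the lower rows show summed markers in the same way. These are the tendon, fibroblast and periosteum, cartilage, osteoblast, skeletal muscle and erythroid lists. Control 1 is high for most genes, most of all Fmod and Kera, and control 4 is low for Omd, Ogn and Aspn.

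Summed markers of several cell types, though not of all, moved with the same libraries. All 6 tendon markers were detected, and their sum was 198 to 218 CPM in the Dmp1Cre.Efnb2f/f-labelled libraries and 81.7 to 920.1 CPM in the controls, highest in control 1. The sums of the 7 osteoblast markers (14596 to 24472 CPM against 14182 to 71433), the 7 fibroblast and periosteum markers (965 to 1307 CPM against 754 to 2133), the 8 cartilage markers (289 to 541 CPM against 151 to 894) and the 5 macrophage and osteoclast markers (1396 to 1428 CPM against 985 to 3038) were also highest in control 1. Not every single marker was, and the cartilage markers Matn1 and Matn3 were at 0 in some libraries. The osteocyte sum was also highest in control 1 (258 to 500 CPM against 156 to 621). Other sums did not follow control 1. Those of marrow stroma (1489 to 1892 CPM against 1142 to 1757) and endothelial markers (374 to 450 CPM against 288 to 377) were highest in replicate 1 labelled Dmp1Cre.Efnb2f/f. The B lineage sum was highest in control 4, and the skeletal muscle sum was lowest in control 1. In control 4 the 7 erythroid markers found summed to 56419 CPM, against 8968 to 25539 in the other libraries, and these markers were lower in every library labelled Dmp1Cre.Efnb2f/f (up to 17550.1 CPM) than in any control. The 7 neutrophil markers separated the groups in the same direction, with sums of 11867 to 14889 CPM against 16969.8 to 19825 CPM in the controls. All 8 skeletal muscle markers were detected, at 23601 to 37304 CPM in the Dmp1Cre.Efnb2f/f-labelled libraries and 10968 to 25396 CPM in the controls. The part of these tissues in the levels of the proteoglycans was not tested.

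Both the total of the family and its make-up varied between libraries. Summed over the 10 genes, the level was 365, 469 and 448 RPKM in the Dmp1Cre.Efnb2f/f-labelled libraries and 851, 255, 271 and 280 RPKM in controls 1 to 4. The former were close to each other, and control 1 was more than 3-fold above the other controls. Dcn made up 46.9%, 44.3% and 35.5% of this sum in the Dmp1Cre.Efnb2f/f-labelled libraries and 35.9%, 35.4%, 36.1% and 30.9% in the controls, so in control 1 its share was close to that of controls 2 and 3. Bgn took 16.1%, 13.1% and 22.4% in the Dmp1Cre.Efnb2f/f-labelled libraries and 23.5%, 25.4%, 16.8% and 36.8% in the controls, where control 4 had the largest share. The ratio of Dcn to Bgn in RPKM ranged from 0.839 in control 4 to 3.39 in replicate 2 labelled Dmp1Cre.Efnb2f/f. The ratio of Fmod to Ogn differed most among the ratios computed, 19.0-fold between control 2 (0.371) and control 1 (7.04).

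**Figure D4:**
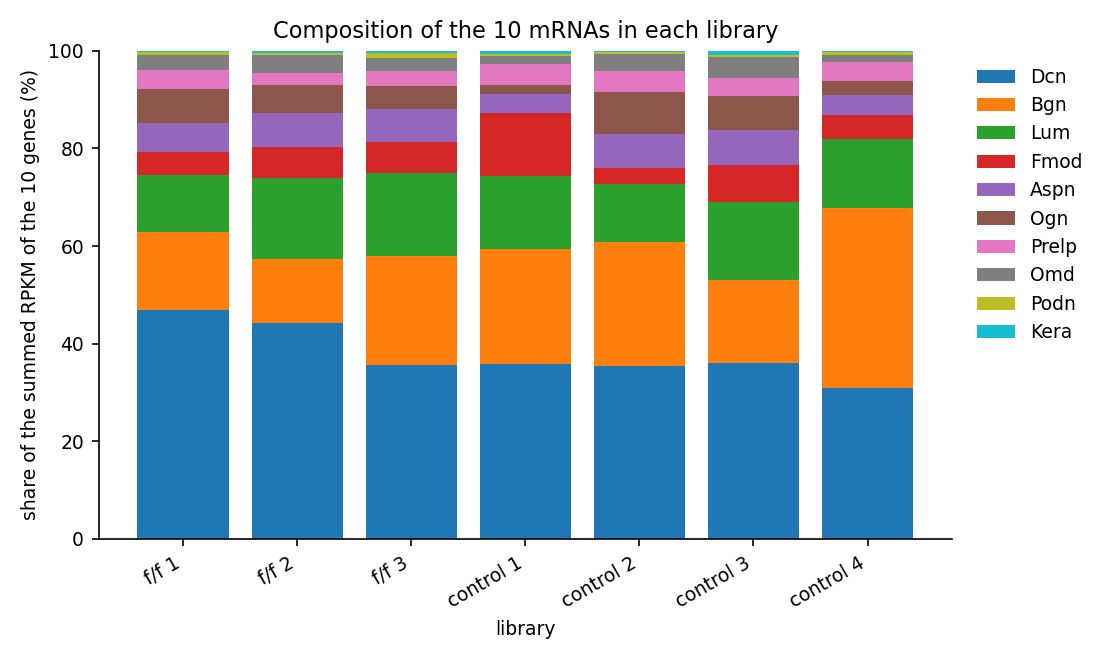
Share of each gene, in percent, in the summed RPKM of the 10 genes in each library. Dcn holds 30.9% to 46.9% and Bgn 13.1% to 36.8% of the sum, and Bgn exceeds Dcn only in control 4.

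Since most of these proteins bind type I collagen, each was also set against the collagen counts of its own library, summed over Col1a1 and Col1a2. These were 244229 to 441592 in the Dmp1Cre.Efnb2f/f-labelled libraries and 232230 to 627061 in controls 2 to 4, and were highest in control 1. Bgn followed collagen most closely. It had 10.3, 8.76 and 10.3 counts per 1000 collagen counts in the Dmp1Cre.Efnb2f/f-labelled libraries and 6.93, 11.7, 7.82 and 7.22 in controls 1 to 4, a 1.69-fold range against 4.39-fold in CPM. Omd (9.46-fold) and Ogn (8.52-fold) ranged most widely per collagen count, and were lowest in controls 4 and 1. Lum had 6.50, 9.64 and 6.85 counts per 1000 collagen counts in the Dmp1Cre.Efnb2f/f-labelled libraries and 3.81, 4.78, 6.45 and 2.41 in the controls, and Podn 0.536, 0.371 and 0.553 against 0.119, 0.310, 0.311 and 0.182. The groups did not overlap for these 2 of 10 genes, against 1.83% of all genes tested with every Dmp1Cre.Efnb2f/f-labelled library above every control per collagen count. The margin was narrow for Lum, which overlapped when the 7 osteoblast markers served as the reference. That list contains Col1a1 and Col1a2, which gave most of its counts (232230 of 248634 in control 2), so it is not an independent reference. These ratios were not tested.

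**Figure D5:**
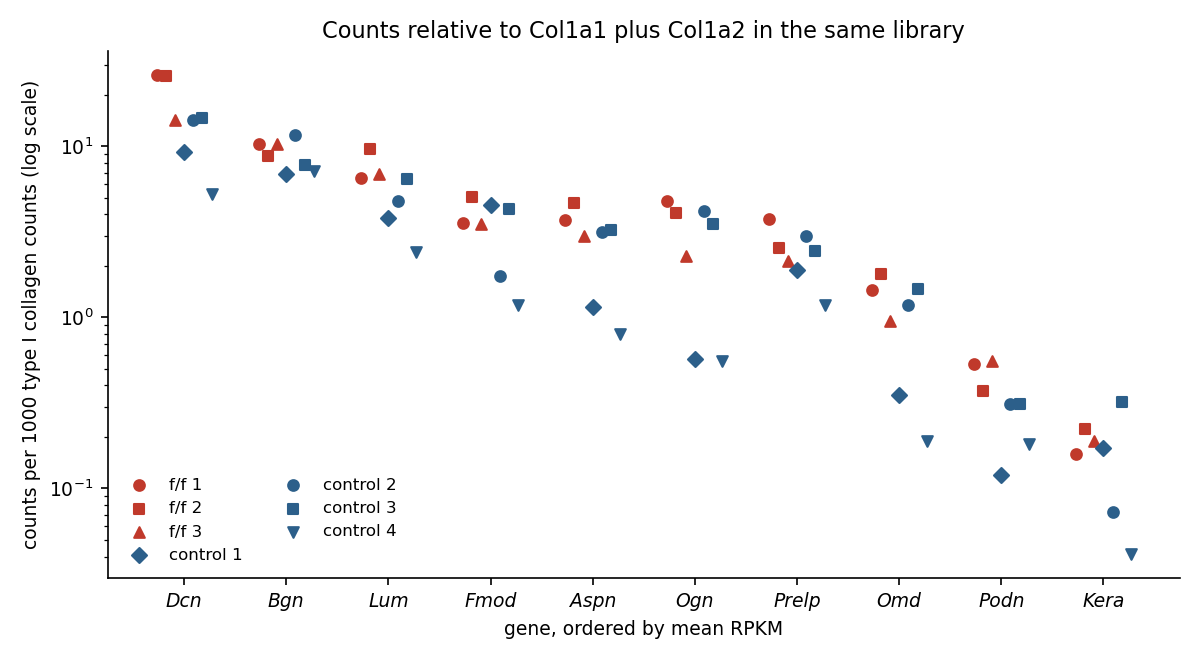
Counts of each gene per 1000 counts of Col1a1 and Col1a2 in each library (log axis), 1 point for each library. The points of Bgn lie closest together (1.69-fold range), those of Omd and Ogn spread most (9.46-fold and 8.52-fold), and for Lum and Podn all libraries labelled Dmp1Cre.Efnb2f/f lie above the controls.

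Genes that act with the family were examined from lists chosen by function. Of 8 further family members, Epyc and Optc were below the filter, and 0 of the other 6 had an unadjusted p under 0.05 by edgeR. Chad (chondroadherin, a cartilage protein) reached 118 CPM in control 1 against 7.96 to 19.7 CPM elsewhere, and Epyc had 33 counts in control 1 and at most 1 in any other library. Of 23 genes for chondroitin and dermatan sulfate chains, 1 was higher at an unadjusted p under 0.05 and 0 were lower, where 4.63% of all genes tested were higher. It was Chsy3, a chondroitin synthase, with 9.84, 8.94 and 9.01 CPM in the Dmp1Cre.Efnb2f/f-labelled libraries and 7.10, 5.99, 4.51 and 5.16 CPM in the controls (log2 fold change 0.70 ± 0.21 (SE), edgeR adjusted p = 0.511). Its groups did not overlap, as was so on the higher side for 5.05% of all genes tested. Of 8 genes for keratan sulfate chains, 5 for tyrosine sulfation, 10 proteinases that cleave the family and 10 collagen ligands, 0 had an unadjusted p under 0.05. The collagen ligands had 10 of 10 log2 fold changes below 0, with a median of -0.32 against 0.01 over all genes. Of the 15098 genes tested, 7347 were below 0 and 7751 above, and of the proteoglycans 6 of 10 were above 0. Controls 1 and 4 weigh on the collagen values, as Col1a1 had 38291 and 18722.5 CPM there, against 7010 to 12729 CPM in the other libraries. Of 19 receptors and bound growth factors tested, 1 reached an unadjusted p under 0.05, on the higher side, against the same 4.63% of all genes. This was Bmp4, a bone morphogenetic protein, at 18.6, 11.0 and 14.7 CPM in the Dmp1Cre.Efnb2f/f-labelled libraries and 9.43, 7.13, 5.62 and 7.28 CPM in the controls (log2 fold change 1.00 ± 0.25 (SE); edgeR adjusted p = 0.511).

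The genes with the most similar pattern over the 7 libraries differed between members of the family. Likeness was measured as Pearson's r of log2 CPM over 7 libraries, given as a description, since the libraries share the contrast of controls 1 and 4 with the rest, and many genes follow each pattern. For Bgn the nearest was Ifitm5 (r = 0.997), a gene of mineralising osteoblasts, and 313 genes had r above 0.9. For Fmod and Lum it was Tnxb (r = 0.987 and 0.974), which encodes the connective tissue protein tenascin X, with Smoc2 nearest to Lum (r = 0.982). For Prelp it was Chad (r = 0.975). Omd had Dgkb (r = 0.993) and its chromosome 13 neighbour Ecm2 (r = 0.972), Aspn had the Wnt antagonist Dkk2 (r = 0.972), and Podn had Neurl2 (r = 0.977) and the Wnt antagonist Frzb (r = 0.975). The nearest genes were Car5b for Dcn (r = 0.992), Pla2r1 for Ogn (r = 0.991) and Atoh8 for Kera (r = 0.959), with Fmod next for Kera (r = 0.956). Within the family, the closest of the 45 pairs were Fmod with Lum (r = 0.956) and Fmod with Kera (r = 0.956), and Bgn with Ogn was the most opposed (r = -0.47).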

How the data were processed

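Raw counts of reads per gene, deposited by the authors without normalization, were used for all 7 libraries. Per the labels and the study's methods, RNA was prepared with a TruSeq kit, base calls were converted with bcl2fastq 2.17.1.14, and reads were mapped to mm10 with Rsubread and counted with featureCounts, with the strand setting not given in the sources used here. Counts were read from the files of the single libraries, since 26 symbols in the table of the whole series had become dates. The Entrez identifiers, coordinates and exon lengths of those files were used.

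A gene was kept if it reached 0.65 CPM in 3 or more libraries (16302), and gene classes that the study removed were left out as far as symbols and RefSeq types identified them, which left 15098. The study's ribosomal genes were read as ribosomal RNA. edgeR 4.0.16 (TMM, robust quasi-likelihood test, no covariate) in R 4.3.3 tested the genotypes, with Benjamini-Hochberg adjustment over all genes tested and calls at an adjusted p under 0.05. Each standard error was obtained from the fold change on the log2 scale and the root of its F statistic. limma 3.58.1 (quantile-normalized log2 CPM, prior count 2, quality weights) and DESeq2 1.42.0 were alternatives. Single values were compared by two-sided exact permutation over the 35 assignments of 3 and 4. Likeness used log2 CPM with a prior count of 2. Scripts were tested on simulated data.

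The members and gene lists were chosen with earlier results of these data known. Named were the 10 members, Efnb2, of each list up to 4 genes with the lowest unadjusted p under 0.05, and for each member the 3 most similar genes. Of the latter and the marker lists, a selection is given. Other genes were named after their values were seen. The removal of controls 1 and 4 together was added after seeing the data. The symbol Hbb-bt of the erythroid list and 1 of the 20 receptors and growth factors, Ccn4, were not found in the files.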

Additional observations from a re-analysis of the deposited data

Results flagged for a closer look

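Of 50 values checked over the 4 controls, 9 had 1 control far from the other 3. About 1 in 20 (2.5) would arise by chance for normally distributed values. The values overlap, as several are sums or shares of the same genes in the same controls. The 9 are therefore not separate, and no conclusion is drawn from setting them against 2.5. The measure is the gap from that control to its nearest neighbour as a part of the range of the controls. Control 1 was far above the others for Dcn (0.947), Fmod (0.873), Lum (0.867) and Prelp (0.937), for the summed RPKM of the 10 genes (0.959) and for the summed tendon markers (0.930). Control 3 was far above the others for the summed skeletal muscle markers (0.884). Control 4 was far above the others for the summed erythroid markers (0.846) and far below them for the share of Dcn in the family (0.865).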

How the results depend on the processing

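The log2 fold changes of all 10 genes kept their sign and stayed short of the adjusted threshold with DESeq2, library size only, upper quartile scaling, without a filter, with 10 or more counts required in every library and with all gene classes kept. The replicate numbers did not pair the libraries, as the deviations of same-numbered libraries from their group means correlated at -0.14, 0.06 and -0.42. With the replicate number as a block, 0 of the 10 genes passed, where 0.00662% of all genes did. The log2 fold changes then ranged from -0.24 for Kera to 0.66 for Podn, with no change of sign. With the parent cross as a block, which leaves 1 pair of libraries to carry the contrast, Bgn (1.14), Fmod (0.45) and Prelp (0.54) turned positive and 1 gene, Podn, had an unadjusted p under 0.05, as did 1.05% of all genes on the higher side. In limma without a day term, Bgn (0.070), Fmod (1.20), Prelp (0.12) and Kera (0.89) turned positive, 3 genes (Dcn, Lum and Aspn) passed and 7 had an unadjusted p under 0.05, against 7.49% and 15.1% of all genes on the higher side. With a day term the 12 values ranged from -0.38 to 0.34 for Bgn, -0.00075 to 1.17 for Fmod, -0.32 to 0.31 for Prelp and -0.41 to 0.99 for Kera. The sign of these 4 genes thus depended on the day assumed. Over the 12 days 0 to 4 genes passed, where 0% to 14.7% of all genes were called higher. Dcn, Lum, Aspn, Omd, Ogn and Podn each passed with at least 1 of the 12 days. Up to 6 genes had an unadjusted p under 0.05, all higher. With the days that gave 6, 10.4% to 13.4% of all genes were higher at that p. Without quality weights limma gave 0.12 for Fmod.

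Leaving out 1 library at a time gave ranges of -0.79 to 0.045 for Bgn, -0.95 to 0.80 for Fmod, -0.092 to 0.79 for Lum, -0.56 to 0.33 for Prelp and -0.78 to 0.60 for Kera, with the positive end always without control 1. The other 5 genes kept their sign, at 0.12 to 0.97 for Dcn, 0.24 to 0.75 for Omd and 0.25 to 0.79 for Aspn, each lowest without control 4 and highest without control 1. Ogn ranged from 0.37 without control 4 to 0.79 without control 2, and Podn from 0.24 without replicate 3 labelled Dmp1Cre.Efnb2f/f to 0.85 without control 1. In these fits 0 to 4 genes had an unadjusted p under 0.05 (4 without control 1, and Ogn without control 2, against 7.27% and 4.13% of all genes on the higher side) and 0 to 4 had groups that did not overlap (4 without control 1, and Ogn without control 2 or without replicate 3 labelled Dmp1Cre.Efnb2f/f, against 10.5%, 7.08% and 13.9% of all genes). Without controls 1 and 4, Bgn (0.41), Fmod (0.79), Prelp (0.38) and Kera (0.35) turned positive and 5 genes (Prelp, Dcn, Lum, Aspn, Podn) had an unadjusted p under 0.05, against 10.2% of all genes on the higher side. The cause of these changes was not tested. Kera, with 17 to 230 counts, and Podn, with 72 to 244, are the genes most limited by depth.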
